A study of Mus musculus with 2 samples.

Results

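The genes described here are the Wnt ligands, their Frizzled and Lrp receptors, the R-spondins with their Lgr receptors, the secreted antagonists, and the targets and feedback inhibitors of the pathway. They were chosen by gene symbol and comprised 55 of the 18193 genes on the arrays, represented by 111 of 34945 probe sets that carry a single gene symbol. Of 56 RefSeq symbols that fit the choice, Tcf7 was not analysed here. Whole limb buds of C57BL/6 mouse embryos at stage E10.5 were profiled on Affymetrix mouse genome 430 2.0 arrays, 1 for wild-type embryos and 1 for Bhlha9 knockout embryos. The deleted gene encodes a transcription factor of the basic helix-loop-helix family that is expressed in the limb bud. The number of embryos behind each RNA, the knockout allele and the mix of fore and hind limb buds are not stated in the labels.

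Wnt proteins are lipid-modified secreted signals that bind Frizzled receptors. With the co-receptors Lrp5 and Lrp6 they stabilise β-catenin, which activates transcription with factors of the Lef and Tcf family, whereas other ligands, Wnt5a among them, act through Ror receptors on cell polarity and movement. R-spondins amplify the signal by keeping Frizzled receptors at the cell surface. In the limb bud, ectodermal Wnt3 sustains Fgf8 in the apical ridge, Wnt7a of the dorsal ectoderm induces Lmx1b in the mesenchyme below, and Wnt5a of the distal mesenchyme is needed for outgrowth.

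Values are MAS 5.0 signals in arbitrary units, and each gene is given by its brightest probe set. A signal under the 40th percentile of its array, 41.2 for the wild-type and 41.8 for the knockout, was treated as at the floor. Ratios are knockout over wild-type, and a ratio with 1 signal under the floor is a bound. No group had a replicate, so no test of the genotype was made, and "higher" and "lower" describe these 2 arrays. The disagreement between the brightest pair of probe sets in 5440 genes corresponded to an SD of 0.28 for 1 log2 ratio, 0.46 among the dimmest of 5 equal groups of these pairs and 0.15 among the brightest, and it leaves out any difference between embryos. For Bhlha9 itself the wild-type signal was 7.87 and the knockout signal 1.70, neither above the floor, which leaves the labels unchecked by this gene.

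Of the 55 genes, 47 were above the floor on at least 1 array, or 85.5% against 71.9% of all genes, and 40 were above it on both. On the knockout array 3 were at least 2-fold higher, Wnt6, Wnt10a and Fzd6, and 4 at least 2-fold lower, Frzb, Wif1, Nkd2 and Rspo4. Of all 13088 genes that passed the floor, 4.15% were at least 2-fold higher and 2.65% at least 2-fold lower, so that 6.38% and 8.51% of the Wnt genes compare with these shares. Frzb, Wif1, Nkd2 and Fzd6 lay close to the threshold. After loess normalization, with 4.88% and 1.99% of all genes called, 5 Wnt genes were higher and 1 was lower. After median centring, with 4.46% and 2.35% of all genes called, and after quantile normalization, with 4.71% and 2.09%, the counts were 5 and 2. Positive and negative ratios were equal in number, 20 each, among the genes above the floor on both arrays, with a median log2 ratio of 0.01 against -0.01 for all 11491 such genes.

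**Figure D1:**
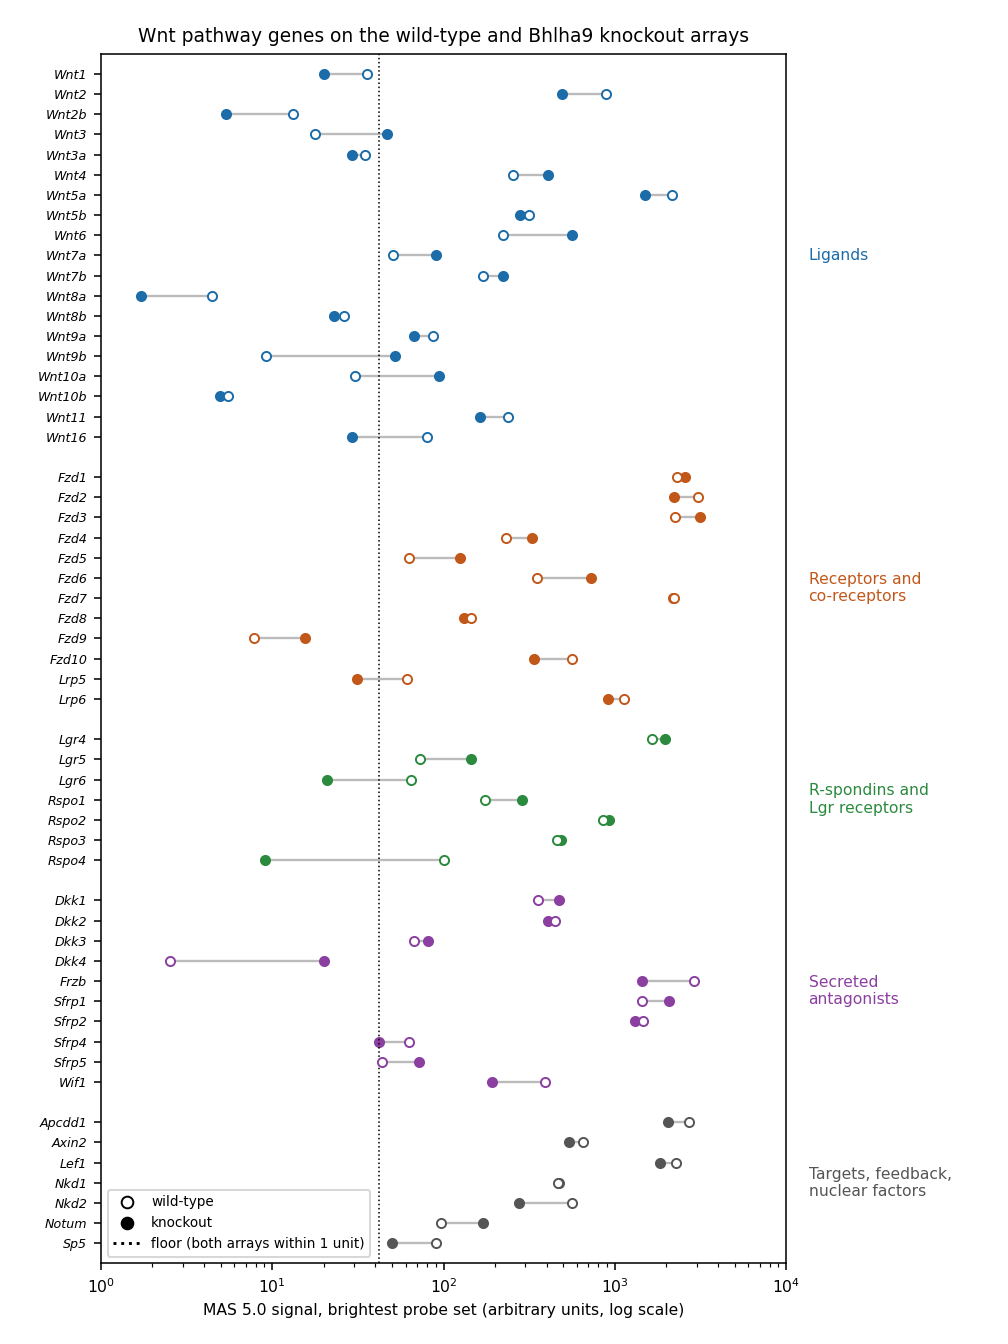
Signals of the 55 Wnt pathway genes on the wild-type array (open circles) and the knockout array (filled circles), in arbitrary units on a log axis, with 1 row per gene, coloured by class. The dotted line is the floor, and 8 genes lie left of it on both arrays; levels of different genes are not comparable.

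The 19 ligands differed in both directions. Those known from the limb ectoderm are described first, then Wnt5a and Wnt11 of the mesenchyme together with other ligands that read lower. This order was chosen after the values were seen, so a direction shared within a part is not a result. Wnt6, a ligand of the surface ectoderm, read 221 on the wild-type array against 561 for the knockout, 2.54-fold higher, and its other probe set read 44.0 and 222. It had the highest log2 ratio of the genes above the floor on both arrays, at 1.34. Wnt10a, which is expressed in ectoderm and ectodermal appendages, read 30.4 on the wild-type array, under the floor, and 94.0 on the knockout array, which makes it at least 2.28-fold higher. When all genes were ranked by signal and split into 5 equal parts, the dimmest part, to which Wnt10a belongs, had 8.86% of genes at least 2-fold higher, against 2.60% in the middle part, which holds Wnt6 and Fzd6.

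Wnt4, also a ligand of ectoderm, gave 253 and 409 by its brightest probe set and 126 and 321 by the other, log2 ratios of 0.69 and 1.35. Wnt7b of the ectoderm read 170 and 221, with log2 ratios of 0.38 and, by its dimmer probe set, 0.02. The dorsal signal Wnt7a gave no clear reading, since its brightest probe set went from 50.8 to 90.1 and the other from 61.0 to 45.4, log2 ratios of 0.83 and -0.43 close to the floor. Wnt3, read by a probe set of a kind prone to cross-hybridisation, read 17.7 on the wild-type array, under the floor, and 46.5 on the knockout array. Of 12 genes listed as ectoderm markers, among them Cdh1 and Epcam, 11 were above the floor. Of these, 7 were at least 2-fold higher and 0 lower, against 4.15% and 2.65% of all genes, and Krt8 stood at -0.11. The summed signal of the 12 went from 6194 to 10902, and Krt15 was under the floor on both arrays. Whether these signals came from ectoderm or from another epithelium was not tested, and liver and endoderm markers were higher as well. The part of the ectoderm markers in the ligand readings was not tested, and in whole tissue, fewer cells of a type and less RNA per cell cannot be told apart.

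Wnt5a, the signal of the distal mesenchyme, was lower by all 4 of its probe sets. They read 2148, 1721, 478 and 241 on the wild-type array and 1491, 766, 345 and 89.7 on the knockout array, log2 ratios of -0.53, -1.17, -0.47 and -1.43. The brightest of these probe sets thus gave a smaller difference than a pair of the others. Wnt2 was 1.79-fold lower, from 884 to 494, and Wnt11, a ligand of limb mesenchyme that acts on cell polarity, went from 237 to 164, a log2 ratio of -0.53. The paralogue Wnt5b had negative log2 ratios of -0.19 and -0.78 by its 2 probe sets. Wnt9a read 86.6 and 67.0. Wnt16 went from 80.4 to 29.3, under the floor, and was at least 1.93-fold lower. Beside these, the 11 markers of limb mesenchyme all had negative log2 ratios, with a median of -0.71 and a summed signal that went from 35860 to 22738. Of these markers 4 were at least 2-fold lower, against 2.65% of all genes. Their part in the lower ligand readings was not tested.

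The other ligands gave little signal. Wnt9b read 9.21 on the wild-type array, under the floor, and 52.2 on the knockout array. Wnt1, Wnt2b, Wnt3a, Wnt8a, Wnt8b and Wnt10b were at the floor on both arrays, with signals of their brightest probe sets from 1.72 to 35.8. Wnt1 and Wnt3a are markers of the dorsal neural tube, and their signals of 35.8 and 34.9 on the wild-type array were followed by 20.1 and 29.3 on the knockout array. On that same array 7 of 13 neural tube markers above the floor were at least 2-fold higher, against 4.15% of all genes. Over the 9 ligands above the floor on both arrays, the median log2 ratio was -0.19, with a range from -0.84 to 1.34.

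Several Wnt genes are neighbours in the mouse genome, and in RefSeq no other protein-coding gene starts between the members of 4 such pairs. Wnt6 and Wnt10a, both at least 2-fold higher, form such a pair, against 4.15% of all genes that much higher. Wnt9b and Wnt3 form another, and both were above the floor on the knockout array alone, as were 962 of all 18193 genes. Their knockout signals, 52.2 and 46.5, were close to the floor of 41.8, with log2 bounds of 0.34 and 0.17. A gene that clears the floor only there, Wnt10a included, cannot come out lower, and its direction is not a result. Wnt10b and Wnt1 were both at the floor. In the pair of Wnt3a and Wnt9a, the first was at the floor and the second had a log2 ratio of -0.37. Whether neighbours share a direction more often than other genes was not tested.

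**Figure D2:**
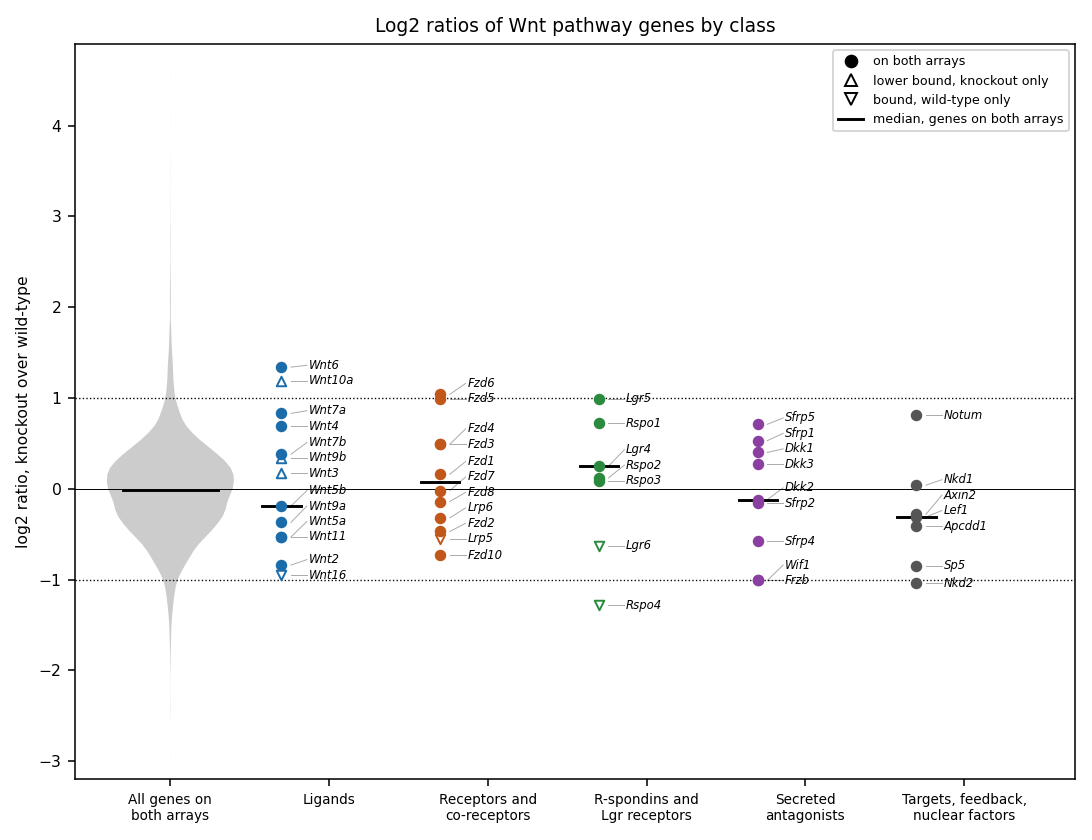
Log2 ratios, knockout over wild-type, of the 47 Wnt genes with a signal above the floor, by class, beside the distribution of all 11491 genes above it on both. Circles are genes above the floor on both arrays, triangles are bounds, short bars are medians of the circles and dotted lines mark 2-fold; the class medians lie between -0.31 and 0.25.

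The 12 receptors and co-receptors had a median log2 ratio of 0.07 over the 10 above the floor on both arrays, from -0.73 to 1.04. Fzd6, a Frizzled that takes part in the planar orientation of epithelial cells, read 352 and 723, 2.05-fold higher, and its other probe set gave a log2 ratio of 0.75. Fzd5 went from 63.1 to 125, 1.98-fold higher, and passed 2-fold after median centring, quantile and loess normalization. All 4 probe sets of Fzd3 above the floor were higher, with log2 ratios from 0.22 to 0.51, and the brightest went from 2245 to 3144. Both probe sets of Fzd4 were higher too, at 0.49 and 0.82.

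Fzd2 and Fzd10 stood on the lower side. The 3 probe sets of Fzd2 gave log2 ratios of -0.47, -0.85 and -0.83, and the brightest went from 3070 to 2210. Fzd10 went from 559 to 337, 1.66-fold lower, and the antisense transcript Fzd10os from 152 to 90.5. A dimmer probe set of Fzd10os read 43.2 and 37.5, the latter under the floor. Fzd7 was nearly equal on the arrays, at 2202 and 2177. The probe sets of Fzd1 and Fzd8 disagreed in direction, with log2 ratios of 0.16 and -0.62 for Fzd1 and of -0.14 and 1.39 for Fzd8, and Fzd9 was at the floor. The co-receptor Lrp6 was lower by both probe sets, at -0.32 and -0.82, and Lrp5 went from 61.2 to 31.3, under the floor, at least 1.47-fold lower.

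Of the 7 R-spondins and their receptors, 5 were above the floor on both arrays and had positive ratios, with a median log2 ratio of 0.25. Of all genes above the floor on both arrays, 50.9% had negative ratios. Rspo2, the R-spondin of the apical ridge that limb growth depends on, read 851 and 923, and Rspo3 459 and 487, both differences below the spread between probe sets. Rspo1 went from 175 to 288, a log2 ratio of 0.72. The receptor Lgr4 read 1641 and 1954, and Lgr5, which marks Wnt-responsive progenitors in many epithelia, went from 72.8 to 145, 1.99-fold higher. The other two were under the floor in the knockout alone, so that their ratios could only be negative. Rspo4, which in humans is needed for nail formation, went from 101 to 9.06 and was at least 2.42-fold lower, in the dimmest part by signal with 3.71% of genes past 2-fold in this direction, while Lgr6 went from 64.7 to 20.9 and was at least 1.55-fold lower. Rspo2 also had a dim probe set that went from 66.7 to 29.4, in the opposite direction to its brightest.

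Counted by probe set, 84 of the 111 were above the floor on at least 1 array, of which 6 were at least 2-fold higher and 8 at least 2-fold lower. These are 7.14% and 9.52% of them, against 3.38% and 3.89% of all 24162 probe sets above the floor. Probe sets of 1 gene read the same RNA and are not separate genes. Wnt6 is among the higher by more than 1 probe set, and so are Wnt5a and Frzb among the lower.

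**Figure D3:**
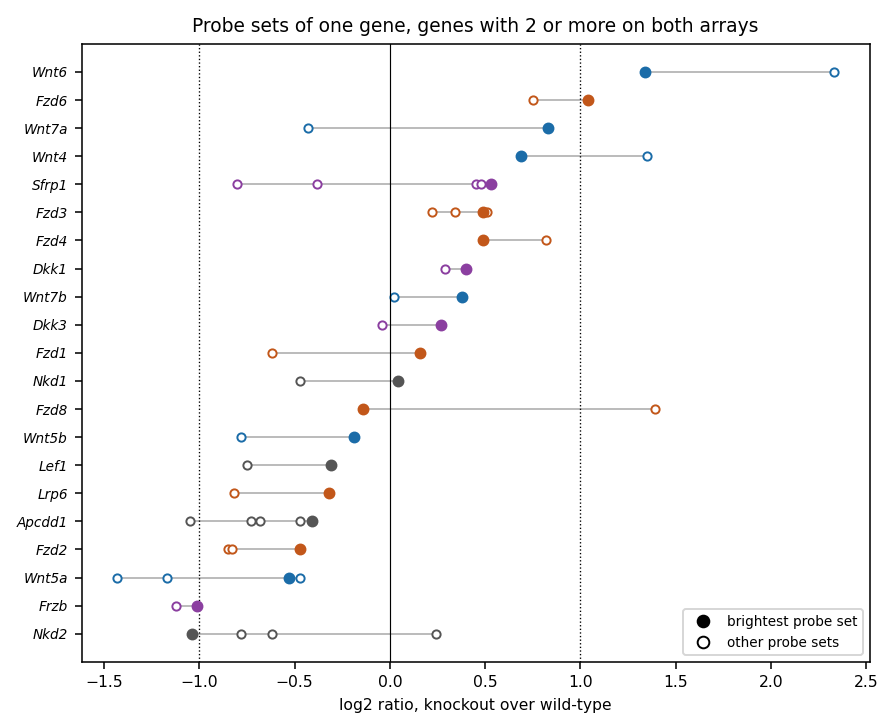
Log2 ratios of the separate probe sets of the 21 Wnt genes with at least 2 probe sets above the floor on both arrays, coloured by class as in the plot of signals; filled circles are the brightest probe sets and dotted lines mark 2-fold. All probe sets of a gene had the same sign in 14 genes and differed in sign in 7, namely Wnt7a, Sfrp1, Dkk3, Fzd1, Nkd1, Fzd8 and Nkd2.

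Among the secreted antagonists the lower readings were those of Frzb and Wif1, both of which bind Wnt proteins outside the cell. Frzb read 2883 and 1432 by its brightest probe set and 621 and 285 by the other, 2.01-fold lower and a log2 ratio of -1.12. It lies in the brightest of the 5 parts by signal, of which 0.649% of genes were at least 2-fold lower. Wif1 went from 390 to 193, 2.02-fold lower, by its only probe set, in a part with 5.39% of genes that much lower. Neither passed 2-fold after median centring or loess, and after quantile normalization Frzb alone of the pair did.

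Members of the Sfrp family, which share the Wnt-binding domain of Frizzled receptors, did not move together. By its brightest probe set Sfrp1 read 1432 and 2067, and its 5 probe sets ranged from -0.80 to 0.53. Sfrp2 read 1453 and 1303, a log2 ratio of -0.16. Sfrp4 and Sfrp5 were close to the floor, at 62.8 and 41.9 and at 43.8 and 71.6. The Dkk proteins block the co-receptors Lrp5 and Lrp6. Dkk1 was higher by both probe sets, from 358 to 473 and from 109 to 133, log2 ratios of 0.40 and 0.29. Dkk2 read 445 and 409, Dkk3 67.1 and 81.0, and Dkk4 was at the floor. The median log2 ratio of the 9 antagonists above the floor on both arrays was -0.12.

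Of the 7 targets, feedback inhibitors and nuclear factors, 5 had negative ratios, against 50.9% of all genes above the floor on both arrays. The median log2 ratio of the class was -0.31. Axin2, the scaffold of the β-catenin destruction complex and a widely used readout of the pathway, read 651 and 537, a log2 ratio of -0.28 that equals the spread between probe sets in size. Lef1, the nuclear partner of β-catenin, had log2 ratios of -0.31 and -0.75. The membrane inhibitor Apcdd1 was lower by all 5 probe sets above the floor, from -0.41 to -1.05, and the brightest went from 2720 to 2050. Nkd2, which binds Dishevelled, went from 565 to 274, 2.06-fold lower, in the middle part by signal, where 2.37% of genes were at least 2-fold lower. A pair of its other probe sets gave -0.78 and -0.62, and a dim one, prone to cross-hybridisation, gave 0.24. The mean over its probe sets was -0.55. Sp5, a zinc finger factor induced directly by Wnt signals, went from 90.8 to 50.3, 1.81-fold lower but close to the floor. Nkd1 read 463 and 475, while its other probe set on both arrays gave -0.47. Notum, an enzyme that removes the lipid from Wnt proteins, had a positive ratio, as did Nkd1 by its brightest probe set. It read 96.3 and 169, a log2 ratio of 0.81.

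Proximal promoters, the 250 bases before a RefSeq transcription start in GRCm38.p6, were searched on both strands for CTTTGA, one form of the Lef/Tcf recognition core. The form CTTTGT was not searched, so such sites are neither counted nor marked, and a promoter without a match may hold them. CTTTGA was found at 7 of 42 starts of the Wnt genes, or 16.7%, and at 13.8% of all 32851 starts. These starts cover 36 of the genes. Those printed are of Sp5 and Dkk1, which have 2 matches each, of Frzb, with 1, and of Wif1 and Wnt6, which have 0 and stand for a lower antagonist and the highest ligand. Each is written 5′ to 3′ in the direction of the gene, and capitals mark CTTTGA, which reads TCAAAG where it lies on the other strand.
Sp5, chr2:70474673-70474922, + strand: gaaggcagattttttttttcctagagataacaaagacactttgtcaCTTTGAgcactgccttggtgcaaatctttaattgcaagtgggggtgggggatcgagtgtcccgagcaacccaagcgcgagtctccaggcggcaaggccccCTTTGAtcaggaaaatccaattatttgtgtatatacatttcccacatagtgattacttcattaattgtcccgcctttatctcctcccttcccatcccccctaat
Dkk1, chr19:30549497-30549746, - strand: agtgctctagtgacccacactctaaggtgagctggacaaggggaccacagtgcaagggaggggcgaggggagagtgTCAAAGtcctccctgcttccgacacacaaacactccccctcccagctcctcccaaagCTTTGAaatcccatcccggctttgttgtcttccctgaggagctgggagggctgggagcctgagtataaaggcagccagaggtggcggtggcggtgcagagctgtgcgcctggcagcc
Frzb, chr2:80447397-80447646, - strand: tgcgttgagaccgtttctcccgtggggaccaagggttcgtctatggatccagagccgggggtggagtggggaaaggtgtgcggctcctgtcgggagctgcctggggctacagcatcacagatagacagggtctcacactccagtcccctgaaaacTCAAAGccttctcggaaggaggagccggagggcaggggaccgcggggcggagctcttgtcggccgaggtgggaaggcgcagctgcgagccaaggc
Wif1, chr10:121033754-121034003, + strand: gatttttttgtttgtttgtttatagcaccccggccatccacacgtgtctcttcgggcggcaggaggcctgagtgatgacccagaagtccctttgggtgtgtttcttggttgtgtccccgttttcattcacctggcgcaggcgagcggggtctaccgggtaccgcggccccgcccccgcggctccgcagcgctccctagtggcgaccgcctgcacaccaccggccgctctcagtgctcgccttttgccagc
Wnt6, chr1:74771642-74771891, + strand: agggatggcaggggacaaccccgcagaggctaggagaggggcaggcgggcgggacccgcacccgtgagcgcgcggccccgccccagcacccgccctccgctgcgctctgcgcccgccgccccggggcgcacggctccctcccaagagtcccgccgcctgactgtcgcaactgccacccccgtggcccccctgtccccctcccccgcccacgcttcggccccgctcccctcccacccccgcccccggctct

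In the Sp5 promoter the matches begin 204 and 104 bases before the start, and the nearer extends to CTTTGAT. The Dkk1 matches begin 174 bases before the start on the other strand and 117 bases on the printed strand, the latter extending to CTTTGAA. These genes with 2 matches differed in direction, at log2 ratios of -0.85 and 0.40, and Axin2 had no match in this window. The GC content of the stretches ran from 46.0% in Sp5 to 79.6% in Wnt6. A match of this length is a description of the letters and not evidence of binding.

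For the other genes of the pathway the counts past 2-fold were near or under the shares of all genes. Of 57 listed, 56 were measured and 53 were above the floor, of which 2, or 3.77%, were at least 2-fold higher and 0 at least 2-fold lower, against 4.15% and 2.65% of all genes. Their median log2 ratio was -0.16. Dact1, a protein that binds Dishevelled, went from 801 to 1813, 2.26-fold higher, and Frat2, which binds the kinase Gsk3, from 64.7 to 133, 2.06-fold higher. Dvl2, named after its value was seen, went from 705 to 353, just short of the threshold, and its other probe set read 39.1, under the floor, and 51.9. Among genes of Wnt secretion, the carrier Wls read 2319 and 2476 and the acyltransferase Porcn 91.3 and 88.1. At the membrane, the proteoglycan Gpc3 had a log2 ratio of -0.24 and the Wnt receptor Ryk one of 0.12, although the dimmest Ryk probe set gave 0.83. Ror2, a receptor of Wnt5a, was lower by both probe sets, from 1180 to 898 and from 937 to 438, log2 ratios of -0.39 and -1.10. The related receptor Ror1, named after its value was seen, went the other way, from 901 to 1105, a log2 ratio of 0.29. In the cytoplasm, Ctnnb1, encoding β-catenin, read 21836 and 26215, a log2 ratio of 0.26, while the poly(ADP-ribose) polymerase gene Tnks2 stood at 0.35 and the ubiquitin ligase subunit Fbxw11 at -0.30.

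The nuclear cofactors had negative ratios in 11 of 13 genes, against 50.9% of all genes above the floor on both arrays, with a median log2 ratio of -0.25 and 0 past 2-fold. The corepressors Ctbp2, Ctbp1 and Tle4 stood at -0.43, -0.12 and 0.09, and a dim probe set of Tle4 gave 1.11. Of the general growth targets, Mycn went from 5962 to 4376, Ccnd1 from 5085 to 3900 and Myc from 777 to 890. Limb genes that depend on Wnt signals gave readings in both directions. Lmx1b, the dorsal target of Wnt7a, was 3.79-fold lower, from 759 to 200. Fgf8 of the ridge read 445 and 492, and Fgf10 of the mesenchyme 162 and 89.7. The ectodermal factors Sp8 and Sp6, which act downstream of Wnt signals in the ridge, had log2 ratios of 1.54 and 0.73, and En1, which keeps Wnt7a out of the ventral ectoderm, was at the floor.

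**Figure D4:**
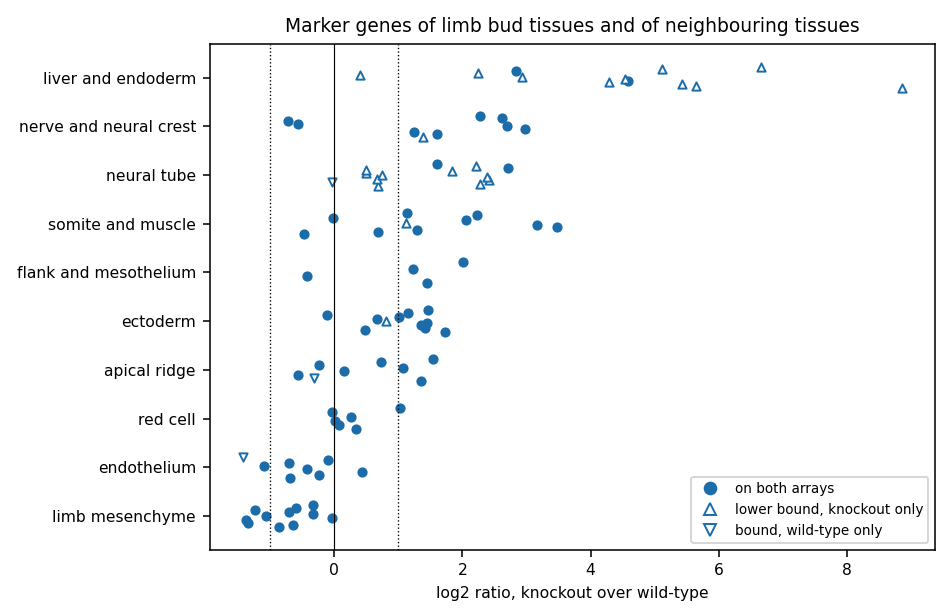
Log2 ratios, knockout over wild-type, of marker genes of limb bud tissues and of tissues near it, with 1 row per list; circles are genes above the floor on both arrays, triangles are bounds and dotted lines mark 2-fold. The 11 mesenchyme markers lie left of 0. On the higher side, 11 of 12 liver and endoderm markers lie at or beyond 2-fold, against 4.15% of all genes.

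Some transcripts of tissues other than the limb bud differed between the arrays by more than any Wnt gene. The summed signal of 12 liver and endoderm markers went from 389 to 34486, with 10 under the floor in the wild-type sample and 11 at least 2-fold higher. For the 14 neural tube markers it went from 767 to 3566, with Dbx2 under the floor on both arrays, for the 9 nerve and neural crest markers measured from 1106 to 3319, for 11 somite and muscle markers from 2879 to 4932, with Pax7 under the floor on both, and for 5 flank and mesothelium markers from 828 to 1802, with Msln under the floor on both. The 9 apical ridge markers went from 1719 to 2152, with Dlx6 at the floor and 3 of the other 8 at least 2-fold higher. Fgf4 and Msx2 of this list stood at -0.56 and -0.24, and Fgf17 was above the floor in the wild-type sample alone. The 8 endothelial markers went from 5756 to 4606. Of these, 2 were at least 2-fold lower, Kdr and Tie1, against 2.65% of all genes, while Emcn stood at 0.44. The 7 red cell markers went from 85317 to 90795, with Hba-a1 under the floor on both. Not every marker went with its list, and in the liver and endoderm list Afp alone read 17.7 and 19084. Sox10 and Ngfr had log2 ratios of -0.72 and -0.57, while 7 of the 9 nerve and neural crest markers were at least 2-fold higher. Actc1 and Tcf15 of the muscle list stood at -0.47 and -0.02, and Osr1 of the flank list at -0.42. Of the 10 muscle markers above the floor 7 were at least 2-fold higher, and of the 4 flank markers 3, against 4.15% of all genes. Lmx1a of the neural tube list was above the floor in the wild-type sample alone. Wnt genes are expressed in many of these tissues, and with 1 array per genotype the share of a Wnt reading that belongs to them cannot be told apart from the limb bud's own.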

How the data were processed

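The arrays were summarised by the authors with MAS 5.0, per the series' design text and the submitters' processing notes, from 200 ng of total RNA per array, and the deposited values are intensities on a linear scale. The 2% trimmed mean was 500.0 on both arrays and the median signal 79.6 and 77.3, over 45101 probe sets, of which 64 controls were set aside. The MAS 5.0 settings and detection calls are not stated in the labels. Gene symbols came from the platform annotation, updated by Entrez identifier to RefSeq genes of GRCm38.p6, and probe sets with several symbols or none were not used for genes.

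Signals below the 40th percentile of the 45037 remaining probe sets were raised to it, a gene was given by its probe set with the highest mean signal, and genes were counted at 2-fold. MAS 5.0 scales each array on its own, so a difference in tissue composition shifts other genes, and signals near the floor are noisy. With 1 array per group the number of arrays limits the precision, and no p-value was computed. Wnt genes above the floor are named, and of the other pathway genes those past 2-fold, the 3 with the highest signal in each compartment, and 6 limb genes. The members, lists and classes were chosen with earlier results of these data known. The counting of genes past 2-fold was tested on simulated data with known folds, planted well past the threshold in brighter genes. The noise was the same at every signal, so the simulation does not cover calls close to the threshold or genes of low signal. Alternatives covered scaling, floor, pseudocount, choice of probe set and fold threshold. Normalization alternatives were run with limma 3.58.1 in R 4.3.3. All else was computed in Python 3.11.15 (pandas 2.3.3, numpy 2.4.6) and drawn with matplotlib 3.10.9.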

Additional observations from a re-analysis of the deposited data

How the results depend on the processing

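Against 3 higher and 4 lower Wnt genes in the report, median centring and quantile normalization each gave 5 higher and 2 lower, and loess 5 higher and 1 lower, Fzd5 and Lgr5 being the added higher genes. A floor at the 20th percentile gave 6 higher and 6 lower of 53, with 11.3% and 8.26% of all genes past 2-fold. With no floor and a pseudocount of 32, 3 were higher and 1 was lower, with 4.63% and 2.57% of all genes past 2-fold. A threshold of 1.5-fold gave 10 higher and 9 lower, with 11.2% and 11.7% of all genes past it, and one of 3-fold 0 and 0, with 1.34% and 0.344% of all genes past it. Of the other pathway genes, 2 were higher and 0 lower in the report. The lower count was 7 at 1.5-fold, where 11.7% of all genes were lower, and 2 with the mean of a gene's probe sets, where 3.45% were. The higher count was 0 at 3-fold, 1 with a floor at the 60th percentile and 1 with the pseudocount. The shares of all genes higher were 1.34%, 1.64% and 4.63% in turn. The median over all Wnt genes and the class medians moved by less than the SD of 0.28 under the 8 alternatives run. That SD is for 1 gene and is wide for a median, and several medians changed sign. They ran from -0.14 to 0.08 over all Wnt genes, -0.37 to 0.01 over ligands, -0.02 to 0.19 over receptors and -0.14 to 0.07 over antagonists. The targets, from -0.55 to -0.27, and the R-spondin class, from 0.12 to 0.29, kept their sign. Of the 7 Wnt genes past 2-fold, 0 changed sign under these alternatives, and Wnt6 passed 2-fold under 8 of 8, Wnt10a and Rspo4 under the 7 that gave a value, Fzd6 under 6 of 8, Frzb under 5 of 8, Nkd2 under 4 of 8 and Wif1 under 3 of 7. Fzd1, Fzd8, Nkd1 and Rspo2 changed sign with the mean of probe sets, to -0.23, 0.63, -0.80 and -0.53, and Fzd7 with median centring, to 0.02; these 5 genes were not past 2-fold. Readings close to the floor, such as those of Wnt7a, Sp5, Sfrp4 and Sfrp5, are limited by signal over background.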

Other observations

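The widest gap between probe sets of a gene above the floor on both arrays was that of Fzd8, from -0.14 to 1.39 on the log2 scale, followed by Sfrp1, from -0.80 to 0.53. By their brightest probe sets, Fzd10 and its antisense transcript Fzd10os were lower by similar amounts, at log2 ratios of -0.73 and -0.75. The other probe set of Fzd10os, close to the floor, gave only a bound of -0.05.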
